A study of Drosophila melanogaster with 22 samples.

Results

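Accessible chromatin was mapped by ATAC-seq, in which a transposase cuts and tags DNA that is not wrapped in nucleosomes, in hearts dissected from adult fruit flies, Drosophila melanogaster. The regions described here lie deep inside protein-coding genes of chromosome arms 2L, 2R, 3L and 3R. They are the merged peaks of the 22 libraries that had a peak in 3 or more libraries, overlapped a protein-coding gene body and lay over 2 kb from every annotated gene end. There were 2509 such regions among 12028 regions with a peak in 3 or more libraries, which is 20.9%. They are called deep regions below.

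Open chromatin inside a gene body is often an enhancer, a stretch where transcription factors bind and from which they act on a promoter at a distance, and the long introns of developmental regulators are known to hold many of them. Insulators, replication origins and internal promoters of shorter transcripts also lie there. Regions at a gene end are mostly promoters, which are open in many cell types, whereas enhancers are known for being open in particular cell types and states. The gene table used here gave gene spans only, so exons, introns and internal transcript starts were not told apart.

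The libraries fall into 6 groups. For the comparison with age, w1118 flies, which carry a mutant white gene and no named driver, gave 3 libraries at 5 weeks and 3 at 1 week. The other groups were all 1 week old and, per the design text, were crosses to Hand-Gal4, a driver active in the heart. LamC RNAi (4 libraries), labelled attp2, LamC iR, was set against the attp2 control (4 libraries), and LamB RNAi (5 libraries), labelled attp40, LamB iR, against the attp40 control (3 libraries). LamC is the A-type and LamB, or Lam, the B-type lamin, both filament proteins of the nuclear envelope, and the stated purpose was to find regions altered both with age and by loss of either lamin. The design text counts 3 LamC and 4 LamB RNAi libraries, but every library that a label puts in a group was kept. The labels do not state whether replicate libraries are independent pools of hearts. The p-values therefore measure only the spread between libraries, which may be technical.

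Within a group, scores of the deep regions correlated between libraries with r between 0.900 and 0.955. The fourth attp2 library stood apart from the other 3, with a mean rank score over the deep regions of 0.234 against 0.206 to 0.208. Among 10 markers of cardiac cells, 7 had a peak within 500 bp of a gene end in all 22 libraries, but tin, which encodes the heart factor Tinman, had none in any library and Doc1 had one in 2 libraries. Markers of pericardial nephrocytes, hemocytes, fat body, muscle, trachea, neurons and germline were open as well, between 2 and 3 of each list in all 22 libraries, while eater, He, Cubn, Fbp1, nSyb, Act88F and btl had no peak in any. The hearts are bulk tissue, so fewer cells of a type and less open DNA per cell cannot be told apart.

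Deposited lists held 8491 to 12395 peaks, and a list lengthens with sequencing depth, which is unknown here. To remove the effect of length, only the 8491 peaks with the highest −log10 p, as given by the authors, were kept in each list. The rank score of a region is 1 for the strongest peak of the reduced list, falls evenly with rank, and is 0 where the reduced list holds no peak. A score of 0 can therefore hide a weaker peak of the deposited list. All levels and differences below are on this scale, which is relative within a library.

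Deep regions were weaker and less widely shared than regions at a gene end, within 500 bp of an annotated end. A deposited peak was present in all 22 libraries at 874 deep regions (34.8%) against 62.0% of the 5652 autosomal regions at a gene end. At the other extreme 402 deep regions (16.0%) had a peak in 3 to 5 libraries, against 5.57% of gene-end regions. The mean rank score over deep regions was 0.219 ± 0.013 (SD, n = 22 libraries), against 0.426 ± 0.016 over gene-end regions. Deep regions scored lower in 22 of 22 libraries, by 0.138 to 0.266 (permutation test of 100000 sign flips, two-sided, p = 1e-05, the smallest these flips can give). Their peaks were also narrower, with a median width of 388 ± 39.96 bp against 541 ± 73.0 bp, and the authors' fold enrichment had a library median of 4.37 ± 0.474 against 6.34 ± 0.523, both lower in 22 of 22 libraries.

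**Figure D1:**
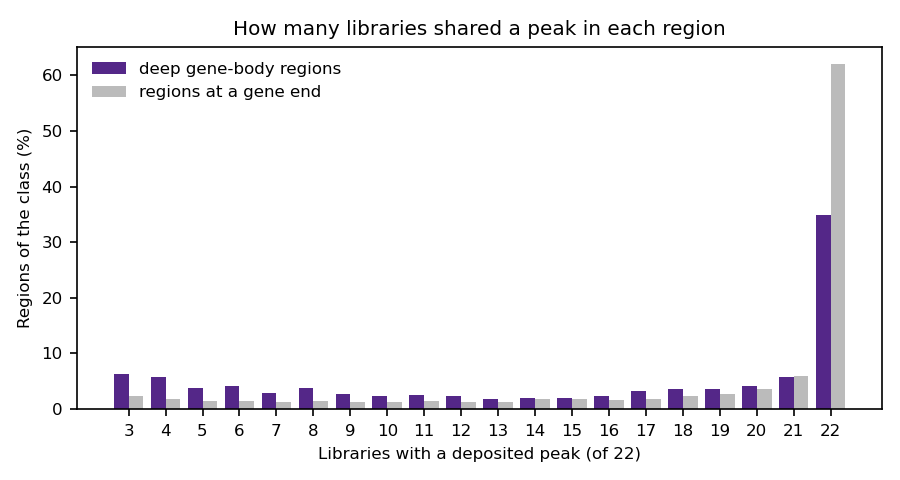
Share of regions (%, vertical axis) by the number of libraries with a deposited peak (horizontal axis), for the 2509 deep gene-body regions (purple) and the 5652 autosomal regions at a gene end (grey). The bar at 22 libraries stands at 34.8% for deep regions and 62.0% for gene-end regions, and the deep regions exceed the gene-end regions at 3 to 5 libraries.

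The deep regions were spread over the arms at 6.13 per 100 kb of DNA that met the distance rule, with 542 on 2L, 542 on 2R, 688 on 3L and 737 on 3R. Their density was lowest on 3R, at 5.45 per 100 kb, and highest on 3L, at 6.86. The 13531 kb of such DNA on 3R include 1940 kb in Myo81F and 701 kb in Pzl, which held no deep region. Densities without such genes were not computed. They covered 4.08% of that DNA and had a median width of 560 bp. The median distance to the nearest gene end was 6104 bp, 702 regions lay over 10 kb from an end, and the most remote lay 63389 bp away. Strength did not follow distance in one direction. The median of the regions' mean scores was 0.0796 at 2 to 5 kb (1015 regions), 0.0554 at 5 to 10 kb (792 regions), 0.0492 at 10 to 20 kb (499 regions) and 0.0902 beyond 20 kb (203 regions). At the edge of the rule, the 48 regions over 2 kb and up to 2100 bp from an end had a median score of 0.0450 and a peak in a median of 14 libraries, and the 46 gene-body regions in the last 100 bp below 2 kb had 0.00881 and 12.5 libraries.

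Deep regions were spread unevenly over genes. They lay in 945 of the 11645 protein-coding genes of the 4 arms, and 414 of these genes held 1 region, 340 held 3 or more, 159 held 5 or more and 36 held 10 or more. Neighbouring regions of the same gene were a median of 2233 bp apart, and 30.1% of the 1689 gaps were under 1000 bp. Whether these gaps are shorter than those of randomly placed regions was not tested. Overlapping genes shared 118 of the regions. Across the 945 genes the number of regions followed the length of deep DNA only in part (Pearson r = 0.528, Spearman correlation 0.537, a description over genes that share the same libraries). Of 164 genes with 50 kb or more of deep DNA, 61 held no deep region, among them Myo81F with 1940 kb and Pzl with 701 kb.

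The gene with most deep regions was Eip75B on 3L, which encodes a nuclear receptor induced by the steroid hormone ecdysone. It held 27 regions in 94.7 kb of deep DNA, or 28.5 per 100 kb, and 16 of them had a peak in all 22 libraries. The mean rank score of single Eip75B regions ran between 0.00210 and 0.809 over the 22 libraries, so strong and faint regions alternated along the gene. The strongest, chr3L:17999418-18000350, had group means of 0.863 at 5 weeks and 0.828 at 1 week in w1118, 0.827 after LamC RNAi and 0.720 in attp2, and 0.814 after LamB RNAi and 0.825 in attp40. No Eip75B region passed the test of any of the 3 comparisons. One, chr3L:18020996-18021396, differed among the 6 groups (limma, moderated F test, adjusted p = 0.0106), with scores of 0.452, 0.358 and 0.352 in the w1118 libraries at 5 weeks and 0.660, 0.598 and 0.543 at 1 week, and group means between 0.624 and 0.758 elsewhere.

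**Figure D2:**
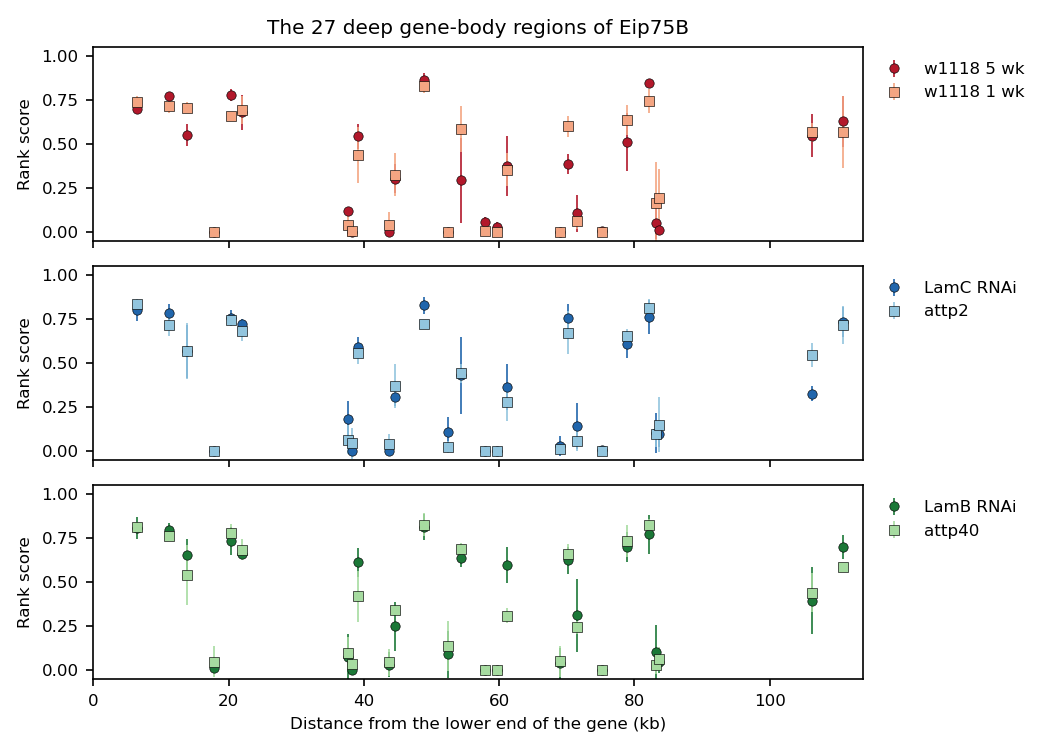
Mean rank score (0 to 1, vertical axes) of each of the 27 deep gene-body regions of Eip75B against the distance of its middle from the lower-coordinate end of the gene (kb). Circles are w1118 at 5 weeks, LamC RNAi and LamB RNAi, squares are w1118 at 1 week, attp2 and attp40, and bars are the SD over the 3 to 5 libraries of a group. High and low regions alternate along the gene, and the order of the regions by height is similar in the 3 panels.

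The next genes were mostly transcription factors and their partners. Glut4EF and CG46467 overlap and shared the same 18 regions. Next came bun (TSC22-domain factor) and Pdp1 (PAR-domain bZIP factor) with 17 regions each, Snoo (Ski/Sno family partner of Smad proteins) and Eip74EF (ecdysone-induced ETS factor) with 15 each, and shn (zinc-finger factor of Dpp signalling) and CG46385 with 14 each. Holding 13 regions each were luna (Krüppel-like factor), fru (BTB zinc-finger factor of sex-specific behaviour), tai (coactivator of the ecdysone receptor), mtd, SNF4Agamma (subunit of AMP-activated kinase) and mam (Notch coactivator). With 12 each followed shep (RNA-binding protein) and fz2 (Wnt receptor). The last of the 25, with 11 each, were hth (homeobox cofactor), Svil (actin-binding supervillin), mtgo, CG32264, cv-c, lilli (scaffold of transcription elongation factors), psq (BTB factor) and pnt (ETS factor of Ras signalling). CG43739, sky and Bsg also held 11 each but have shorter spans.

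These 25 genes held 327 of the deep regions (13.03%), at 8.90 (hth) to 33.6 (CG46385) per 100 kb of deep DNA. Their median was 17.6 per 100 kb, close to the median of 16.3 over the 945 genes. Genes with many regions differed widely in how strong those were. Eip74EF had a mean score of 0.718 over its 15 regions, 13 of them shared by all 22 libraries, whereas cv-c averaged 0.0467 over 11 regions, 1 of them shared by all. Between them, tai averaged 0.397, mam 0.386 and mtd 0.128. In Pdp1 the deep regions averaged 0.345, close to the 0.341 of the strongest region at an end of the gene, while in Snoo they averaged 0.209 and the strongest end region 0.981.

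**Figure D3:**
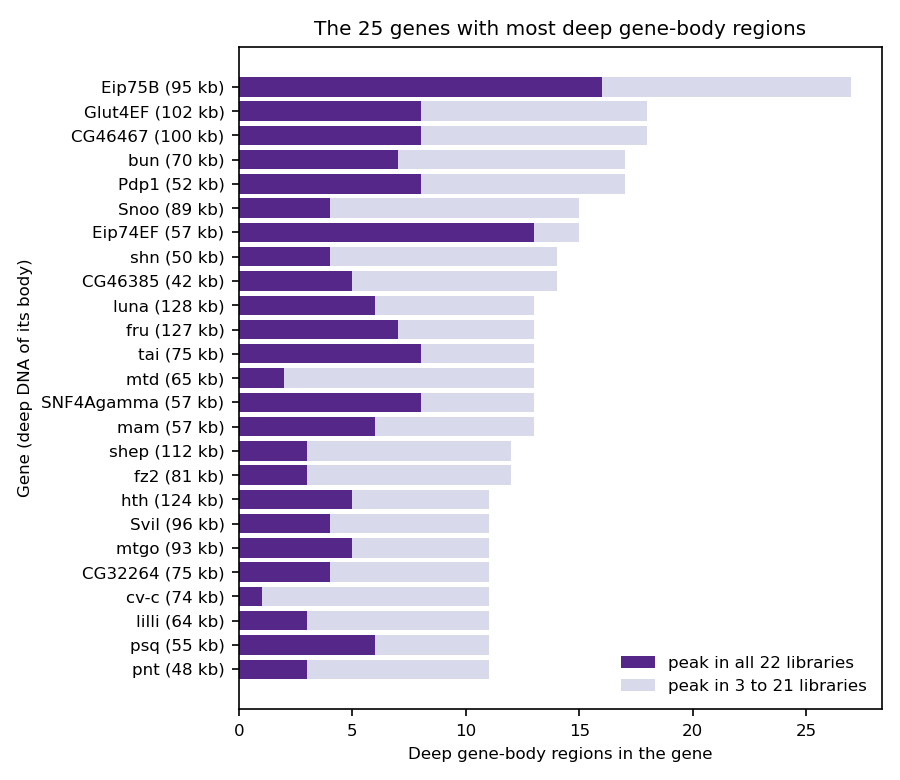
Number of deep gene-body regions (horizontal axis) in each of the 25 genes with most of them, with the length of their deep DNA in kb in brackets. The dark part of a bar counts regions with a peak in all 22 libraries and the pale part those with a peak in 3 to 21 libraries. Eip75B has the longest bar (27) and Eip74EF is dark for 13 of its 15.

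The highest-ranking deep regions also lay in regulators. The region with the highest mean score over the 22 libraries, chr3R:16249555-16250865, lies in tara and reached 0.998, and its lowest library stood at 0.988. Next were dsx, a factor of sex determination (chr3R:7947117-7948140, 0.997), Kr-h1, a zinc-finger factor of the juvenile hormone response (chr2L:6088096-6089366, 0.996), and ftz-f1, a nuclear receptor (chr3L:18759010-18759653, 0.996). EcR, the ecdysone receptor (chr2R:6119887-6121020), and Eip74EF (chr3L:17590384-17591163) had 0.995, CG13917 (chr3L:1586362-1587144) 0.994 and the Hox gene Ubx (chr3R:16702613-16704122) 0.993, followed by bun (chr2L:12529391-12530091) and tai (chr2L:9176021-9177007) with 0.990 each. These 10 regions were at or above 0.964 in every library, near the top of each list whatever the group. In all, 207 deep regions (8.25%) had a mean score over 0.8, against 16.2% of gene-end regions.

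The gene lists differed in how many deep regions they held and how strong these were. Genes of the ecdysone response and nuclear receptors held 113 regions in 14 of 19 autosomal genes, with a median score of 0.396 and 61.1% open in all 22 libraries, beside 0.0634 and 34.8% over all deep regions and 0.249 and 50.4% over all 12028 regions. Besides Eip75B, Eip74EF and tai, it included EcR, Eip93F and ftz-f1 with 9 regions each, chinmo with 6, and svp and Hnf4 with 5 each. Their mean scores ran between 0.181 in chinmo, a BTB factor of developmental timing, and 0.516 in ftz-f1. None of the 94 tested regions of the list rose with age or after RNAi, and 1, in chinmo, fell with age. Of all regions tested, 0.609% rose and 0.711% fell with age, 0.0812% rose after LamC RNAi and 0.112% after LamB RNAi. Counts of 0 and 1 are therefore no result about the list.

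Long homeobox and zinc-finger genes held 173 regions in 34 of 49 genes, with a median score of 0.121 and 41.6% open in all libraries. Apart from those named above these were bab1 with 7 regions and Antp, bab2, vri and aop with 6 each, of which vri, a clock factor, averaged 0.576 and bab2 0.0653. Cardiac and mesodermal transcription factors held 18 regions in 6 of 21 genes, 7 of them in Mef2, the muscle differentiation factor, at a mean score of 0.474. Sarcomere and giant muscle genes held 45 regions in 14 of 24 genes, with a median of 0.0838. Dys (dystrophin) had 9, Zasp52 (a Z-disc protein) 9 and Msp300 (a giant linker of nuclei to the cytoskeleton) 7.

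Medians were lower in adhesion and matrix genes. Cell adhesion and axon guidance genes held 50 regions in 16 of 30 genes with a median of 0.0145 and 16.0% open in all libraries, and the 10 regions of Ten-m averaged 0.0157. Extracellular matrix and integrin genes held 37 regions in 10 of 20 genes with a median of 0.0200, and none of the 10 regions of dally, a glypican, was open in all libraries. The remaining members with 5 or more were Sdc, AdamTS-A, caps and Dscam1, holding 5 to 7 each. Signalling genes had 117 regions in 25 of 36 genes, with a median of 0.0464, including foxo with 7, tkv and Dad with 6 and InR and sty with 5, and Dad, an inhibitory Smad, averaged 0.603. RNA-binding proteins had 81 regions in 14 of 16 genes, with a median of 0.0335. Among them were pum and how with 10, Rbfox1 and Syp with 9, mbl with 8, mub and bru2 with 6 and heph and sm with 5.

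Actin and cytoskeleton regulators had 65 regions in 19 of 24 genes, with a median of 0.113, among them toc with 9, sick and shot with 8 and trio with 6. Ion channel and calcium genes had 23 regions in 14 of 22 genes, with a median of 0.194. The lists of other cell types held few: 3 regions in neuron and glia genes, 3 in somatic muscle identity genes, 7 in pericardial nephrocyte, 11 in hemocyte, 13 in fat body, 25 in trachea and epidermis and 2 in germline genes. No region of these 7 lists passed the test with age, LamC RNAi or LamB RNAi, beside 1.32%, 0.152% and 0.183% of all regions tested. With so few regions, a count of 0 is no result about these lists.

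For the deep regions as a whole, no comparison between groups passed its test. In lists of equal length, 50.3 ± 2.07% of the deep regions had a peak in w1118 hearts at 5 weeks and 53.4 ± 0.472% at 1 week (SD, n = 3 each). The values did not overlap, but the exact permutation p was 0.1, the smallest that 3 against 3 libraries allow, and the adjusted p over 9 tests was 0.72. After LamC RNAi the share was 49.8 ± 1.90% and in attp2 hearts 49.4 ± 3.58% (n = 4 each, exact permutation p = 0.8). After LamB RNAi it was 51.0 ± 2.30% (n = 5) and in attp40 hearts 52.8 ± 1.85% (n = 3, exact permutation p = 0.286). Mean scores of the deep regions lay between 0.210 and 0.227 in the 6 groups, and neither they nor their distance from the gene-end regions passed the test in any comparison (lowest adjusted p = 0.72, exact permutation tests, two-sided).

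**Figure D4:**
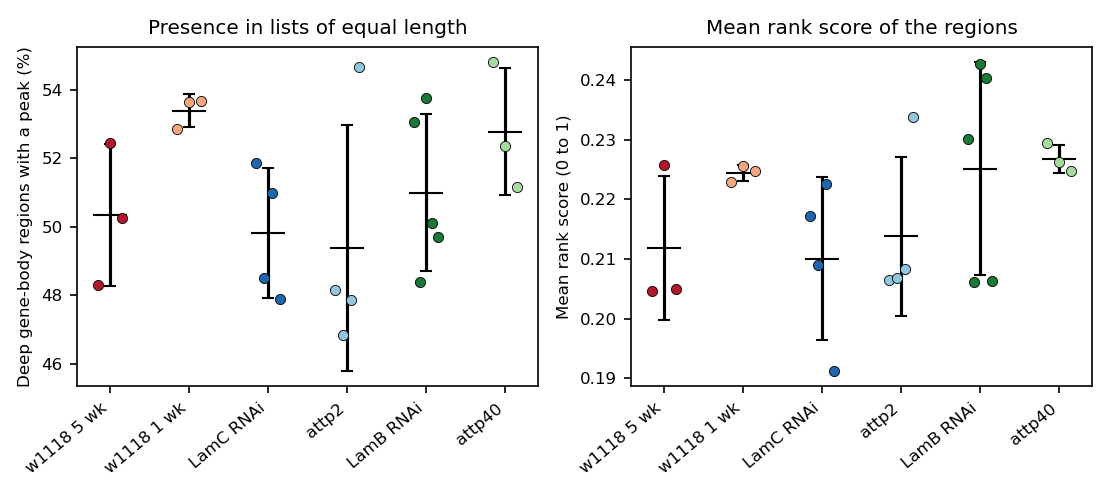
Each dot is a library, in 6 groups along the horizontal axis, and bars show the mean and SD of the group. The left panel gives the share of the 2509 deep gene-body regions with a peak in lists of equal length (%) and the right panel their mean rank score (both vertical axes start above 0). The w1118 libraries at 5 weeks lie at 48.3 to 52.5%, against 52.8 to 53.7% at 1 week, and the fourth attp2 library lies above the other 3 in both panels.

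Single regions did change with age. Of the 1749 deep regions tested, 41 passed in the comparison of 5 weeks with 1 week in w1118 (limma, Benjamini-Hochberg adjusted p under 0.05), 21 higher and 20 lower. That is 2.34% of those tested, beside 1.32% of all 9848 regions tested, 0.609% higher and 0.711% lower. The other 760 deep regions had a peak in fewer than 3 reduced lists and were not tested. Ranking the full deposited lists gave 127, 89 higher and 38 lower, and ranking only the strongest 4245 peaks of each gave 6, 4 higher and 2 lower. Fitted on the 6 w1118 libraries alone, 2 of the 41, Bicra and zormin, passed.

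For 13 of the 41, 8 higher and 5 lower, the group where the region was high supplied the peaks that let it into the test, since fewer than 3 reduced lists elsewhere held one. Among all 130 called regions this was so for 32. The 13 lie in Calx, Dys (both regions), sima, sbb, CG4080, par-1, loco and CG42673, and in lilli (the lower region), shn, bab1 and CG15611. Their values are given below as a description, without a p-value. With no such filter all 13 passed, as did 38 of the 41, but that fit uses the same values and gives the 13 no separate support.

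Summed scores of the cell type markers moved with age in part, and their part in these changes was not tested. The sum over the 6 nephrocyte markers, with Cubn at 0, was 1.88 to 2.06 in the 5-week libraries, against 2.49 to 2.86 in the 1-week libraries. Over the 6 hemocyte markers, with eater and He at 0, it was 2.31 to 2.37 at 5 weeks against 2.54 to 2.69 at 1 week. For these lists the ages did not overlap, nor for the 4 trachea and epidermis markers, with btl at 0 (2.36 to 2.595 against 2.598 to 2.66). The sums of cardiac, fat body, neuron and glia, somatic muscle and germline markers overlapped, the cardiac sum over 10 markers with tin at 0 being 5.05 to 5.42 at 5 weeks and 5.33 to 6.13 at 1 week.

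The regions that were higher at 5 weeks are taken first. In Calx, which encodes a sodium-calcium exchanger, chr3R:20984199-20984380 scored 0.272, 0.257 and 0.183 in the 5-week libraries and 0 in all 3 1-week libraries. The groups did not overlap, and of the 16 other libraries 1, of LamC RNAi, was above 0. No 1-week w1118 library held a weaker deposited peak there, but 1 attp2 and 1 LamB RNAi library did. The region in Gprk2, a kinase of G protein-coupled receptors, chr3R:31437366-31438143, had 0.224, 0.140 and 0.323 at 5 weeks against 0, 0.0431 and 0 at 1 week. All 3 older libraries were above all 3 younger ones (difference 0.214 ± 0.0403 (SE), limma adjusted p = 0.00697), and the region passed whichever of the 6 w1118 libraries was left out.

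Further rises were in shot, T48, cv-c and mim. For shot, a spectraplakin that links actin to microtubules, chr2R:13919544-13920090 scored 0.444, 0.526 and 0.471 at 5 weeks against 0.214, 0.197 and 0.202 at 1 week. Both groups were tight and apart (difference 0.276 ± 0.0681 (SE), limma adjusted p = 0.0436), yet the call was lost whichever w1118 library was left out. For T48, a transmembrane protein of apical constriction, chr3R:26904386-26904890 had 0.238, 0.452 and 0.350 at 5 weeks against 0, 0 and 0.109 at 1 week (difference 0.311, limma adjusted p = 0.0191). The cv-c region chr3R:14473952-14475210 scored 0.176, 0.378 and 0.212 against 0, 0.0263 and 0.00954 (difference 0.244, limma adjusted p = 0.0459). The last, chr2R:6961080-6962442, lies where CheB42c overlaps mim, an actin and membrane regulator, and had the largest rise, with 0.304, 0.496 and 0.616 at 5 weeks against 0.0287, 0.0492 and 0.00506 at 1 week (limma adjusted p = 0.00931).

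Others rose in bru1, HnRNP-K and Rgl. The region of bru1, an RNA-binding regulator of splicing and translation, chr2L:12286379-12287240, scored 0.274, 0.409 and 0.393 at 5 weeks against 0.151, 0.115 and 0 at 1 week (limma adjusted p = 0.0237). That of HnRNP-K, also an RNA-binding protein, chr2R:20596529-20597674, scored 0.287, 0.421 and 0.331 at 5 weeks and 0 in all 3 younger libraries, of which 2 held a weaker deposited peak (limma adjusted p = 0.00853). Neither gene's older and younger libraries overlapped. Rgl, an exchange factor for Ral, scored 0.336, 0.200 and 0.359 at chr3L:13916551-13917162 at 5 weeks against 0.0146, 0 and 0.137 at 1 week (difference 0.248, limma adjusted p = 0.0106). In sima, which encodes the hypoxia-inducible factor alpha subunit, chr3R:30077882-30078368 had 0.0956, 0.240 and 0.216 at 5 weeks and 0 in all 3 libraries at 1 week, 2 of which held a weaker deposited peak. A second sima region, chr3R:30083947-30084844, scored 0 in all 3 older libraries, each of which held a weaker deposited peak, against 0.169, 0.417 and 0.288 in the younger ones, and did not pass (limma adjusted p = 0.126). The 5 other regions that passed upward lie in Mmp2, dally, toc, mura and Dys, with differences of 0.406, 0.399, 0.385, 0.362 and 0.369.

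Altogether 8 of the deep regions had a peak in the reduced list of every 5-week library and a score of 0 in the 19 other libraries, which is 0.319% of them, beside 0.141% of all 12028 regions. They lie in sbb, CG4080, loco, CG42673, par-1, pnt, LRR and nebu. The sbb region chr2R:18346332-18346674, in a transcriptional corepressor gene, scored 0.126, 0.167 and 0.340 at 5 weeks. The CG4080 region, chr3L:9395852-9396242, scored 0.158, 0.115 and 0.308, and the region of par-1, a polarity kinase, chr2R:19476004-19476402, scored 0.134, 0.219 and 0.0979. The region of loco, a regulator of G protein signalling, chr3R:22625022-22625579, scored 0.0319, 0.367 and 0.178 at 5 weeks, and that of CG42673, chr3L:9564450-9564927, 0.0983, 0.111 and 0.334. The other 3 were weaker and were not among the 41. The pnt region chr3R:23320440-23320686 scored 0.0962, 0.0269 and 0.105 at 5 weeks, the LRR region chr2R:7693508-7693829 0.00259, 0.0464 and 0.0801, and the nebu region chr3L:12840321-12840849 0.0339, 0.0245 and 0.0661. In the full deposited lists, weaker peaks were present in 2 of 3 1-week w1118 libraries at CG4080, CG42673, loco, LRR and nebu and in 3 of 3 at par-1, and in none at sbb and pnt. Outside w1118, sbb had one in 2 LamC RNAi and 1 LamB RNAi libraries, pnt in 1 LamC RNAi library, and CG4080 and par-1 in 1 LamB RNAi library each. The loco region had one in 1 attp2 and 1 LamB RNAi library, and LRR in 1 LamC RNAi, 1 attp2 and 1 LamB RNAi library. For nebu it was 1 LamC RNAi, 2 attp2 and 1 attp40 library, and CG42673 had none. The same rule found 1 deep region for w1118 at 1 week, in bab1, beside 0.0333% of all regions. It found no deep region for the other 4 groups, beside 0% of all regions for LamC RNAi, 0.00831% for attp2, 0% for LamB RNAi and 0.0166% for attp40.

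Among the regions lower at 5 weeks were those of ab, kn and Mes2. In ab, a BTB factor, chr2L:11218824-11219783 scored 0.422, 0.382 and 0.290 at 5 weeks against 0.595, 0.652 and 0.663 at 1 week (difference -0.272 ± 0.0593 (SE), limma adjusted p = 0.0203). The older libraries lay below not only the younger ones but also all 16 libraries of the other groups, whose lowest value was 0.478. The kn region chr2R:14790454-14791063, in a COE-family factor gene, had 0.691, 0.515 and 0.453 against 0.894, 0.738 and 0.822 (limma adjusted p = 0.0499), and the Mes2 region chr3L:22947997-22949030 had 0.478, 0.658 and 0.525 against 0.779, 0.804 and 0.866 (limma adjusted p = 0.0260). For bab1, a BTB factor, chr3L:1083450-1084125 was 0 in all 3 older libraries and 0.0868, 0.104 and 0.184 in the younger ones, and had no score above 0 in the other 16, of which 5 held a weaker deposited peak. The shn region chr2R:11190615-11191092 scored 0, 0 and 0.0237 against 0.121, 0.0761 and 0.139, and chinmo and sens-2, a zinc-finger gene, fell by 0.354 and 0.424.

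Lower regions were also found in sfl, zormin, Bicra and Pi3K68D. In sfl, which encodes a heparan sulfate N-sulfotransferase, chr3L:6512381-6513151 was 0 in all 3 5-week libraries, 2 with a weaker deposited peak, against 0.399, 0.263 and 0.166 in the 1-week libraries (difference -0.276 ± 0.0543 (SE), limma adjusted p = 0.00931). In zormin, a titin-like sarcomere protein gene, chr3L:2129940-2130466 scored 0.0105, 0 and 0 against 0.177, 0.206 and 0.164 (limma adjusted p = 0.0319). The Bicra region chr3R:29089161-29089707 was 0 in all 3 older libraries, each with a weaker deposited peak, against 0.204, 0.262 and 0.214 in the younger ones (limma adjusted p = 0.0269). Both zormin and Bicra lost the call whichever w1118 library was left out. The region of Pi3K68D, a phosphatidylinositol 3-kinase gene, chr3L:11785209-11785684, was 0 in all 3 older libraries against 0.0596, 0.170 and 0.140 in the younger ones, that of CG31808 fell by 0.207, and that of CG15611 differed by −0.173. The largest fall was in pxb, chr3R:15676994-15678171, with 0.118, 0.183 and 0.275 at 5 weeks against 0.680, 0.605 and 0.653 at 1 week (difference -0.454, limma adjusted p = 0.00185). The remaining falls were in nuf (-0.380), Plp (-0.379), RapGAP1 (-0.367) and Fhos (-0.300), a formin that builds sarcomeric actin.

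In 2 genes, lilli and Dys, 1 of the 41 regions was higher and another lower at 5 weeks. In lilli, chr2L:2922118-2922665 scored 0.4002, 0.399 and 0.448 at 5 weeks against 0.0417, 0.166 and 0.0356 at 1 week (limma adjusted p = 0.0260). Its second region, chr2L:2935803-2936280, was 0 in all 3 older libraries and 0.196, 0.309 and 0.277 in the younger ones (difference -0.261). Of the 16 other libraries only the third attp40 library was above 0 there, at 0.0115, although the deposited lists of all 3 older libraries held a weaker peak. In Dys, chr3R:19476265-19477145 scored 0.198, 0.551 and 0.358 at 5 weeks and 0 in all 3 1-week libraries, of which 2 held a weaker deposited peak. Its second region, chr3R:19508930-19509241, scored 0 in all 3 5-week libraries, each with a weaker deposited peak, and 0.147, 0.153 and 0.332 at 1 week.

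**Figure D5:**
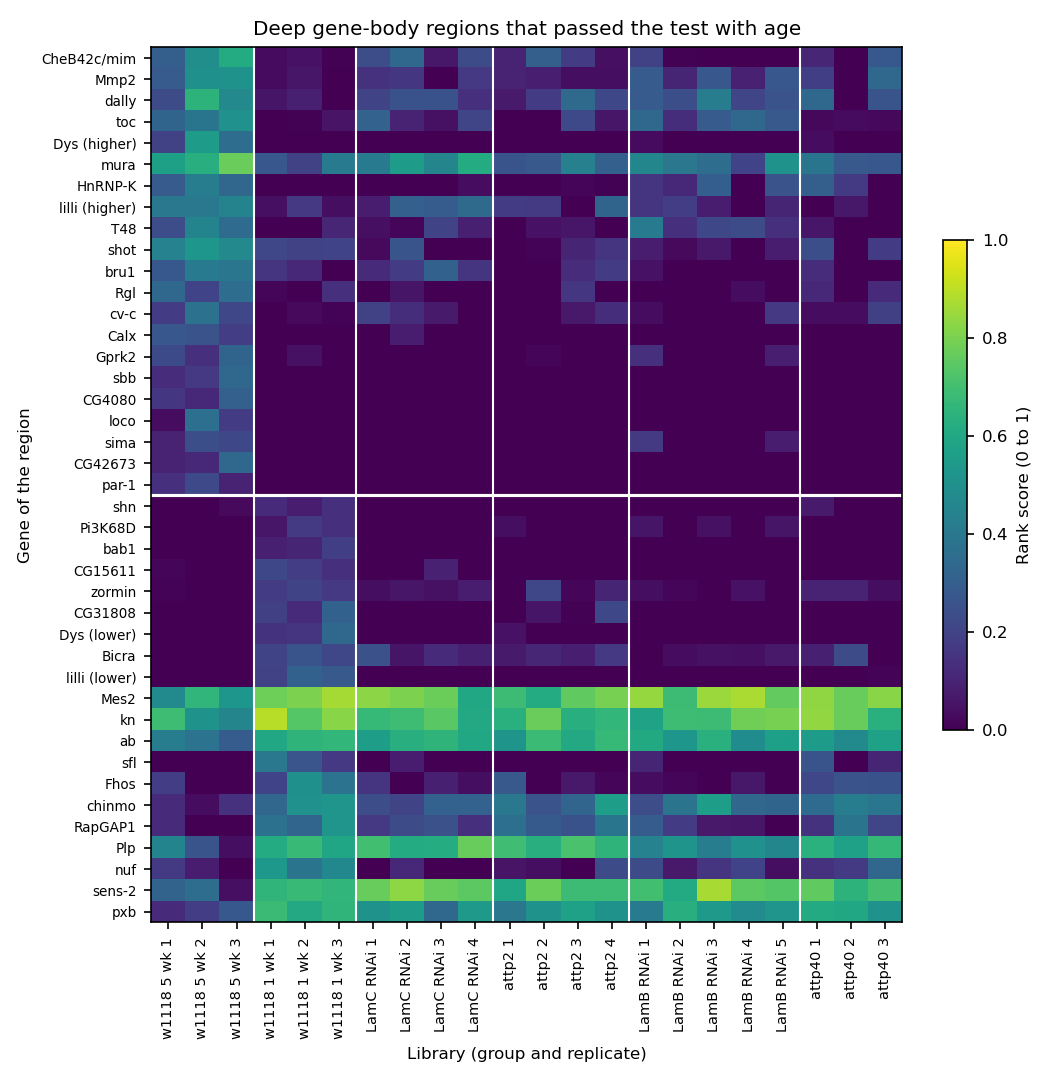
Rank score (colour, 0 dark to 1 bright) of the 41 deep gene-body regions that passed the test with age (rows, named by gene) in the 22 libraries (columns). Rows above the white line were higher and rows below it lower in w1118 at 5 weeks than at 1 week, ordered by the difference. In rows such as sbb and par-1 the 3 older w1118 libraries stand alone, while in sens-2 and pxb the older libraries lie below all other columns.

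Between the w1118 ages, the rises and falls were of similar size, with median differences of 0.270 and −0.264. Of the 21 regions that rose, 9 had group means below 0.05 in all 4 other groups, and of the 20 that fell, 6 had. Leaving out the third 5-week library left 18 called regions, and leaving out the third 1-week library 26, while leaving out the first 5-week library gave 58. In each of the 6 fits without a library 13 of the 41 passed, 9 of them among those let into the test by their high group, and 3 (shot, zormin and Bicra) passed in none. By presence in lists of equal length, 32 deep regions had a peak in every 5-week library and no 1-week library, beside 0.84% of all regions, and 37 the reverse, beside 0.915%. These are 1.28% and 1.47% of the deep regions. With the deposited lists the counts were 67 (beside 1.65%) and 47 (beside 0.906%).

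Some regions with such presence did not pass the test. In rols, a gene of myoblast fusion, chr3L:12054490-12054855 scored 0.279, 0.235 and 0.273 at 5 weeks and 0 in all 3 1-week libraries, 2 with a weaker deposited peak (limma adjusted p = 0.0723). The reverse held for 3 more besides the second sima region. In E23, an ecdysone-induced ABC transporter gene, chr2L:3347984-3348906 was 0 in all 3 5-week libraries and 0.561, 0.178 and 0.413 at 1 week (limma adjusted p = 0.200). In pros, a homeobox factor of neural lineages, chr3R:11372026-11373062 was 0 in all 3 older libraries against 0.480, 0.153 and 0.310 in the younger ones (limma adjusted p = 0.0805). In AdamTS-A, a secreted metalloprotease gene, chr3R:15461047-15461513 was 0 in all 3 5-week libraries against 0.152, 0.245 and 0.420 at 1 week (limma adjusted p = 0.228). Weaker deposited peaks were present in all 3 5-week libraries at E23 and in 2 at pros and at AdamTS-A.

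By gene list, the regions that passed with age were few in each, beside 0.609% of all regions tested that were higher and 0.711% that were lower, and counts of 0 to 3 cannot be read as particular to a list. Of the tested regions in actin and cytoskeleton genes, 3 of 50 rose (mim, toc, shot) and 1 fell (Fhos). Sarcomere genes had 1 rise (Dys) and 2 falls (Dys, Fhos) among 36, and long homeobox and zinc-finger genes 1 rise (lilli) and 3 falls (lilli, shn, bab1) among 133. These counts include the 5 regions of Dys, lilli, shn and bab1 that their high group let into the test. In matrix genes 2 of 23 rose (Mmp2, dally), in signalling genes 2 of 77 (dally, cv-c), in RNA-binding genes 1 of 52 (bru1) and in ion channel and calcium genes 1 of 18 (Calx, let in the same way). None of the 16 tested regions of cardiac and mesodermal factors passed, and none of the 28 of cell adhesion and axon guidance genes. Their median differences with age lay at −0.0146 in the cardiac and 0 in the sarcomere list.

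Averaged over all deep regions of a gene, 9 of the 340 genes with 3 or more regions passed with age (2.65%; limma on the gene's mean score, adjusted over the 340 genes). Rgl was higher at 5 weeks, with means over its 3 regions of 0.434, 0.356 and 0.429 against 0.325, 0.326 and 0.341 (limma adjusted p = 0.0399). The other 8 were lower, namely CG31808, nuf, Rgk1 (a small GTPase), chinmo, Trim9 (a ubiquitin ligase), cno (an adherens junction protein), hth and AdamTS-A. Rgl, CG31808, nuf and chinmo each hold a region that passed singly, so their gene means in part repeat that result. In CG31808 that 1 region made up the whole difference. In hth, the 11 regions averaged 0.275 ± 0.033 at 5 weeks and 0.353 ± 0.012 at 1 week (SD, n = 3 each), a difference of −0.0774 ± 0.0185 (SE, limma adjusted p = 0.0399). In Rgk1, 2 older libraries were at 0 and the third at 0.0102, against 0.127, 0.111 and 0.122 in the younger ones. None of the 340 genes passed without the third 5-week library or without the third 1-week library.

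After LamC RNAi, 3 of the 1749 tested deep regions passed (0.172%), beside 0.152% of all regions tested. Higher were 2, beside 0.0812% of all regions, and lower 1, beside 0.0711%. The nephrocyte marker sum was 2.02 to 2.14 after LamC RNAi, against 1.75 to 1.96 in attp2, without overlap, and its part was not tested, while the sums of the 7 other marker lists overlapped. In CG12769, chr2R:8060701-8061972 scored 0.780, 0.829, 0.795 and 0.926 after LamC RNAi against 0.664, 0.625, 0.682 and 0.688 in attp2 hearts. The groups did not overlap, and the attp2 libraries were also lower than those of all other groups (difference 0.168 ± 0.0282 (SE), limma adjusted p = 0.00637). In Zasp52, chr2R:15781110-15781775 had 0.405, 0.345, 0.303 and 0.224 after LamC RNAi against 0, 0, 0 and 0.0615 in attp2 hearts (difference 0.304 ± 0.0622 (SE), limma adjusted p = 0.0463). The adjusted p was between 0.0699 and 0.157 in 7 of the 8 fits that left out a LamC or attp2 library. In Kah, a Snail-family zinc-finger gene, chr3L:586416-586781 was 0 in all 4 LamC RNAi libraries against 0.270, 0.144, 0.108 and 0.159 in attp2, and the second 1-week w1118 library was the only other one above 0. The attp2 libraries let this region into the test, so its p-value is not given. With no filter on low regions the Kah region passed, in a fit of the same values that gives it no separate support. Zasp52 did not pass there (limma adjusted p = 0.0652).

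The next in order did not pass. TM9SF4 was at 0.514, 0.552, 0.506 and 0.507 after LamC RNAi against 0, 0.228, 0.289 and 0 in attp2 (chr2L:13770796-13771515, limma adjusted p = 0.114). The luna region chr2R:11104495-11105191 had 0.739, 0.737, 0.829 and 0.740 against 0.858, 0.881, 0.905 and 0.856 (limma adjusted p = 0.0717), and that of l(2)gl, a cell polarity gene, chr2L:18564-19224, had 0.213, 0.0519, 0.176 and 0.231 against 0.571, 0.305, 0.437 and 0.481 (limma adjusted p = 0.190). A peak in all LamC RNAi and no attp2 library was found at 3 deep regions (Dif, CG44153 and mld), beside 0.15% of all regions, and the reverse at 4 (Kah, ps, CG31635 and Sarm), beside 0.0831%. With the deposited lists the counts were 0, beside 0.0748%, and 6, beside 0.0582%. By gene, 0 of 340 passed (0% called), with 22 at an unadjusted p under 0.05 and a lowest limma adjusted p of 0.669.

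After LamB RNAi, 2 of the 1749 tested deep regions passed, both higher, beside 0.183% of all regions tested, with 0.112% higher and 0.0711% lower. In fru, chr3R:18507751-18507996 lies 37590 bp from the nearest gene end and scored 0.344, 0.489, 0.151, 0.431 and 0.358 after LamB RNAi and 0 in all 3 attp40 libraries (difference 0.355 ± 0.0614 (SE), limma adjusted p = 0.0138). In Mkp3, which encodes a phosphatase of MAP kinases, chr3L:19071329-19071633 had 0.279, 0.0347, 0.272, 0.305 and 0.325 after LamB RNAi and 0 in all 3 attp40 libraries (difference 0.243 ± 0.0473 (SE), limma adjusted p = 0.0336). No attp40 library held a deposited peak at either region. Outside this comparison 2 w1118 libraries at 5 weeks and 1 attp2 library held one at fru. At Mkp3 3 w1118 libraries at 5 weeks, 1 LamC RNAi library and 1 attp2 library held one. The mean score at Mkp3 was 0.00919 in w1118 at 5 weeks, and neither region passed with age. The sums of all 8 marker lists overlapped between LamB RNAi and attp40 libraries. Without the third attp40 library, whose file carries an earlier date than the rest of this comparison, the limma adjusted p was 0.0644 for fru and 0.137 for Mkp3. Mkp3 passed in 1 of the 8 fits that left out a LamB or attp40 library.

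Further regions did not pass. LpR1, a lipophorin receptor gene, had 0.490, 0.307, 0.489, 0.657 and 0.480 after LamB RNAi against 0.194, 0.226 and 0 in attp40 (chr3R:25760304-25760630, limma adjusted p = 0.108). Lower after LamB RNAi without passing were brp (chr2R:9506224-9506613), with 0 in all 5 libraries against 0.239, 0.304 and 0 (limma adjusted p = 0.0726), Pka-R1 (chr3L:20826392-20827288, limma adjusted p = 0.136) and CG3328 (chr2R:24167883-24168380, limma adjusted p = 0.119). A peak in all LamB RNAi and no attp40 library was found at 4 deep regions (fru, Mkp3, CG43693 and Dscam1), beside 0.125% of all regions. The reverse held at 5 (sNPF-R, Pka-R1, CG3328, CLIP-190 and msi), beside 0.166%. With the deposited lists the counts were 13, beside 0.333%, and 0, beside 0.0333%. By gene, 0 of 340 passed (0% called), with 34 at an unadjusted p under 0.05 and a lowest limma adjusted p of 0.236.

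None of the 41 regions that passed with age passed in either RNAi comparison. Since 0.152% and 0.183% of all regions tested passed with LamC and LamB RNAi, a count of 0 among 41 is no result about these regions. At the Calx region the difference was 0.0194 for LamC RNAi and 0 for LamB RNAi, at the toc region 0.0973 and 0.251, and at the T48 region 0.0590 and 0.205, with limma adjusted p of 0.185 or more in each. At the pxb region it was -0.0126 and -0.0555, and at the nuf region -0.0528 and -0.0769. Others of the 41 went against their change with age. At the sens-2 region, lower at 5 weeks, the differences were 0.0933 for LamC RNAi and 0.0285 for LamB RNAi. At the Rgl region, higher at 5 weeks, they were -0.0257 and -0.0699. Whether the 41 shared a direction with either RNAi was not tested.

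More deep regions differed among the 6 groups than within any comparison. In the test of equal means over all groups 182 passed (10.4% of those tested), beside 7.21% of all regions, and 141 of them passed in none of the 3 comparisons. How many of the 182 were let into the test only by the groups where they were high was not counted. By gene, 31 of the 340 genes with 3 or more regions passed (9.12%). In 64 of the 182 (35.2%) both attp40 groups had means above all 4 other groups, beside 30.4% of all 710 regions that passed, and in 12 (6.59%) both were below, beside 9.30%. The w1118 groups were both above in 15.4%, beside 21.4%, and both below in 20.3%, beside 23.1%. The attp2 groups were both above in 2.20%, beside 5.92%, and both below in 10.4%, beside 8.03%. Strain and the dates in the file names go together with these groups and cannot be told apart. Between the w1118 groups and the rest, the Hand-Gal4 driver goes together with them too. The design text names it for the attp2 and attp40 groups alike and not for w1118.

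The lowest adjusted p of this test was in PH4alphaEFB, which encodes a collagen prolyl hydroxylase. The region chr3R:30482845-30483700 scored 0.480, 0.353 and 0.343 at 5 weeks and 0.291, 0.303 and 0.303 at 1 week in w1118, and of the 16 other libraries only the first LamB RNAi library was above 0, at 0.146. The w1118 libraries let this region into the test, so its p-value is not given and its place gives no support. Kank had the opposite pattern at chr2R:14907936-14908472, with 0, 0.0306 and 0.0956 at 5 weeks and 0.0409, 0.263 and 0.180 at 1 week in w1118, 0.542, 0.470, 0.386 and 0.426 after LamC RNAi, 0.393, 0.316, 0.455 and 0.343 in attp2, 0.578, 0.681, 0.738, 0.718 and 0.679 after LamB RNAi and 0.623, 0.605 and 0.670 in attp40 (adjusted p = 4.57e-06, limma F test). At chr2L:20891079-20891552, where CG43739 overlaps sky, a GTPase-activating gene of synaptic vesicles, the w1118 libraries lay at 0.0974 to 0.335 and all others at 0.443 or above.

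Also among the lowest adjusted p were regions of kuz, which encodes an ADAM protease that cleaves Notch, and of Mical, which encodes an actin-oxidising enzyme. The kuz region chr2L:13571676-13572822 had 0.202, 0.124 and 0.187 at 5 weeks and 0.258, 0.438 and 0.241 at 1 week in w1118, 0.805, 0.681, 0.667 and 0.709 after LamC RNAi and 0.495, 0.486, 0.464 and 0.583 in attp2. All 4 LamC RNAi libraries were above all 4 attp2 libraries, but the comparison did not pass (limma adjusted p = 0.391), and the LamB RNAi and attp40 libraries lay at 0.371 to 0.680. The Mical region chr3R:10034930-10035565 was above 0 in all 6 w1118 libraries and in 2 LamC RNAi libraries, and 0 in all 5 LamB RNAi, all 4 attp2 and all 3 attp40 libraries. The w1118 libraries let the Mical region into the test too, so its place by adjusted p gives no support. At chr3L:16480201-16481080, where CG33158 overlaps aos, an inhibitor of the EGF receptor, the score was 0 in all LamC RNAi, attp2 and attp40 libraries and up to 0.103 after LamB RNAi, and in w1118 0.148, 0.399 and 0 at 5 weeks and 0.432, 0.331 and 0.545 at 1 week.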

How the data were processed

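Each of the 22 libraries came with its own peak list. The submitters' processing notes name MACS2, Bowtie2, Picard and SAMtools and the build dm6, without versions, peak threshold or read shift. Deposited for each peak are a fold over background (a ratio), the −log10 of its p-value and that of its q-value, all as the authors computed them. The deposited score column was not used. Depth is unknown, so no interval for counting error is given.

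All deposited peaks were merged with bedtools 2.31.1 into 14325 regions, and 12028 with a peak in 3 or more libraries were kept. Gene spans came from RefSeq (Release 6), and distance was taken to either end of every gene, coding or not. Rank scores were computed as described in the report from lists cut to 8491 peaks, and 9848 regions with a peak in 3 or more cut lists were fitted with limma 3.58.1 (R 4.3.3, trend), 1 mean per group over all 22 libraries, Benjamini-Hochberg adjusted over all of them, and called at 0.05. All 6 groups thus inform the spread of a region. Library means were compared with exact permutation tests (scipy 1.17.1). The members and gene lists were chosen with earlier results of these data known. Named are the 25 genes with most regions, the regions and genes with the strongest tests, the 10 strongest regions, list genes with 5 or more regions and regions present in 1 group alone. The remaining regions that passed with age and those compared among all groups were named after their values were seen. Same-numbered replicates correlated in their deviations at 0.0238 to 0.147 with age, −0.274 to 0.0382 for LamC RNAi and 0.0841 to 0.214 for LamB RNAi. No comparison had all pairs over 0.1, so no pairing was used. Alternatives changed the list length, ranking, peak threshold, merging, distance, filters, moderation and libraries. No genome sequence was used, so no region sequences or motifs are given.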

Additional observations from a re-analysis of the deposited data

Results flagged for a closer look

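In 5 of the 34 groups of 4 or 5 libraries that were checked, the highest or lowest library lay apart from the rest by Dixon's criterion. Independent, normally distributed values meet it in about 1 of 20 groups. Some of the flags fall on the same library and scores are bounded at 0, so the count cannot be read as an excess. In the fourth attp2 library 54.7% of the deep regions had a peak in lists of equal length, against 46.8 to 48.1% in the 3 other attp2 libraries. Its mean score over the deep regions was 0.234, against 0.206 to 0.208. The same library was the only attp2 library above 0 at the Zasp52 region (0.0615), which passed with LamC RNAi. With the 3 other attp2 libraries at 0, any score above 0 there would have been flagged. At the luna region the third LamC RNAi library had 0.829, against 0.737 to 0.740 in the other LamC RNAi libraries. At the Mkp3 region the second LamB RNAi library had 0.0347, against 0.272 to 0.325 in the other LamB RNAi libraries, and without it the limma adjusted p of the LamB comparison was 3.4e-05.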

How the results depend on the processing

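The called regions depended on list length and on which libraries informed the spread. With age, 6 deep regions passed from the strongest 4245 peaks, 127 from all deposited peaks, 70 with library weights, 9 from the comparison's own libraries and 0 with a replicate block (0 genes). With LamC RNAi 1 passed when ranked by fold enrichment, 1 over 5 kb from gene ends, 0 from its own libraries and 0 with the replicate block. With LamB RNAi 0 passed from the strongest 4245 peaks, 1 without trend, 4 with weights, 1 from its own libraries and 0 with the replicate block. The labels give replicate numbers without saying that equal numbers pair samples, and not every library correlated best with its own number. Same-numbered w1118 libraries did have similar median peak widths, 453, 502 and 566 bp at 5 weeks and 462, 500 and 553 bp at 1 week. Why the calls were lost with the block was not tested. Among all groups 42 passed from the strongest 4245 peaks, 385 from all deposited peaks and 107 over 5 kb. There were 1494 regions over 5 kb from an end. With all deposited peaks, 67 regions were present in every 5-week and no 1-week w1118 library, 0 in every LamC RNAi and no attp2 library, 13 in every LamB RNAi and no attp40 library and 0 the reverse. They turned the difference in share to −3.91 for LamC RNAi and 8.33 for LamB RNAi, and the mean score to 0.0360 for LamB RNAi (0.00130 from the strongest 4245 peaks). Over 5 kb, the LamB RNAi difference from gene ends was −0.000626.

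Leaving out each library gave 18 to 58 regions with age, 2 to 6 with LamC RNAi and 1 to 6 with LamB RNAi, and 0 to 10, 0 to 1 and 0 to 1 genes. The mean score difference ran from −0.00800 to 0.00288 for LamC RNAi and −0.00606 to 0.00307 for LamB RNAi, the share from −0.422 to 2.20 for LamC RNAi (3.16 with LamC RNAi replicates 3 and 4, which share a file date, averaged), and the difference from gene ends from −0.0102 to 0.0152 for LamB RNAi. None of 32 named results reversed. All 25 of them that had passed lost their call in their own libraries alone, and the other 7 had not passed before. The causes were not tested. Depth is unknown, and peaks absent from a list may lie under the authors' threshold.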
